A study of Mus musculus with 32 samples.

Results

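The serotonin receptor genes of the mouse frontal cortex (FCtx) were followed across all arrays of the series. All probes annotated on the array to Htr1a, Htr1b, Htr1d, Htr1f, Htr2a, Htr2c, Htr3a, Htr4, Htr5a or Htr7 were taken, which gave 14 probes for 10 genes of the 25697 probes and 18138 gene symbols of the array. The tissue came from 20 ethanol-treated mice and 12 untreated control mice, all female F1 hybrids of the inbred strains C57BL/6J and FVB/NJ. The strain label names the cross in 1 direction, while the study's methods name both reciprocal crosses, and the ages of the mice were not given in the sources used here. For 20 days the treated mice were offered 20% ethanol and water in separate bottles during limited sessions of the dark phase, and what they drank was voluntary. Each mouse gave 1 Illumina MouseRef-8 v2.0 array of the dorsal part of a rostral cortical slice.

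Serotonin released by axons of the raphe nuclei acts on cortical cells through a family of receptors, nearly all of which signal through heterotrimeric G proteins. The Htr1 receptors couple to inhibitory G proteins, the Htr2 receptors to phospholipase C, and Htr4 and Htr7 to stimulation of adenylyl cyclase. Htr3a encodes a subunit of the only serotonin-gated ion channel of the family, which cortical GABAergic interneurons are known to carry, and Htr1a is known from pyramidal neurons and from the raphe, where it is an autoreceptor. RNA for these receptors is of low abundance in cortex compared with that of structural genes, and a bead array reads it through a single short probe per transcript region.

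The probe sequences set what each value can report, and the first 30 of the 50 bases are given 5′ to 3′ for the probes on which the results turn. The first 3 are the probes that were detected and tested, the next is a further Htr1f probe, and in the last pair, both of Htr2a, capitals mark bases that the probes share.
Htr1a, ILMN_2664762: gctgtatctttccaatgtctgcacctgctg
Htr1f, ILMN_2933261: gccccctgtctaggaatcaagctctaaaca
Htr3a, ILMN_2702403: caggctgctgttccgcatctacctgctggc
Htr1f, ILMN_1225277: gcagctcctatttagccttagcagagaaga
Htr2a, ILMN_2725523: cgcTACGTGGCTATCCAGAACCCCATTCAC
Htr2a, ILMN_2725529: TACGTGGCTATCCAGAACCCCATTCACcat
In the array's annotation the Htr1a probe lies on chromosome 13 and starts at base 3505 of its transcript. Both Htr1f probes lie on chromosome 16 and start at bases 1984 and 2255 of the same transcript, and the Htr3a probe starts at base 1499 of its own. The pair of Htr2a probes overlapped by 47 of 50 bases and so are not independent measurements. No other pair of serotonin receptor probes shared a run of more than 9 bases on either strand.

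The 32 arrays sat on 4 chips of 8, with ethanol-treated mice alone on chips 1 and 2, controls alone on chip 4, and 4 of each on chip 3. On chip 3 the ethanol arrays held the odd positions and the controls the even positions, so treatment and position cannot be told apart there, and outside chip 3 treatment and chip cannot be told apart. The median signal of an array was 166 to 203 in the ethanol group and 146 to 187 in controls, and 10644 to 11544 and 9480 to 11413 probes had a detection p-value below 0.01. Pairs of arrays correlated at Pearson's r = 0.984 to 0.996. No source places the mice in separate cages or litters, so p-values measure the spread between these animals only.

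Of the serotonin receptors, only Htr1a, Htr1f and Htr3a were detected at the level required here, which was 24 of the 32 arrays with a detection p-value under 0.01. This left 3 of 14 probes (21.4%), against 10187 of all 25697 probes (39.6%). Htr1a was detected on all 32 arrays. The Htr1f probe ILMN_2933261 was detected on 30 arrays, 19 of ethanol-treated mice and 11 of controls. Htr3a was detected on 24 arrays, 15 and 9, and so passed with no array to spare. The shares of arrays that detected a probe were thus close between the groups for each tested receptor.

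The other 11 probes stayed below this level, and 7 of the 10 genes had no tested probe. Htr4, a receptor that raises cyclic AMP, came nearest with 13 arrays (8 ethanol, 5 control) at probe ILMN_2776237, while its other probe was detected on none. The second Htr1f probe was detected on 8 arrays (5 ethanol, 3 control). The remaining genes had a detection p-value below 0.01 on few arrays or none. Htr2a, the main excitatory serotonin receptor of cortical pyramidal neurons, reached detection on 1, 1 and 2 arrays with its 3 probes, all from ethanol-treated mice. Htr7 was detected on 2 arrays, both ethanol. Htr1b and Htr1d, which are known as receptors on axon terminals, were each detected on 1 control array, and Htr2c and Htr5a on none. With a detection p-value below 0.05 instead, Htr7 and the Htr2a probe ILMN_2725529 each passed on 11 arrays, and Htr2c and Htr5a on none. These counts describe what single probes read. They do not show that a receptor was absent, and counts this small do not show that the groups differed in detection.

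**Figure D1:**
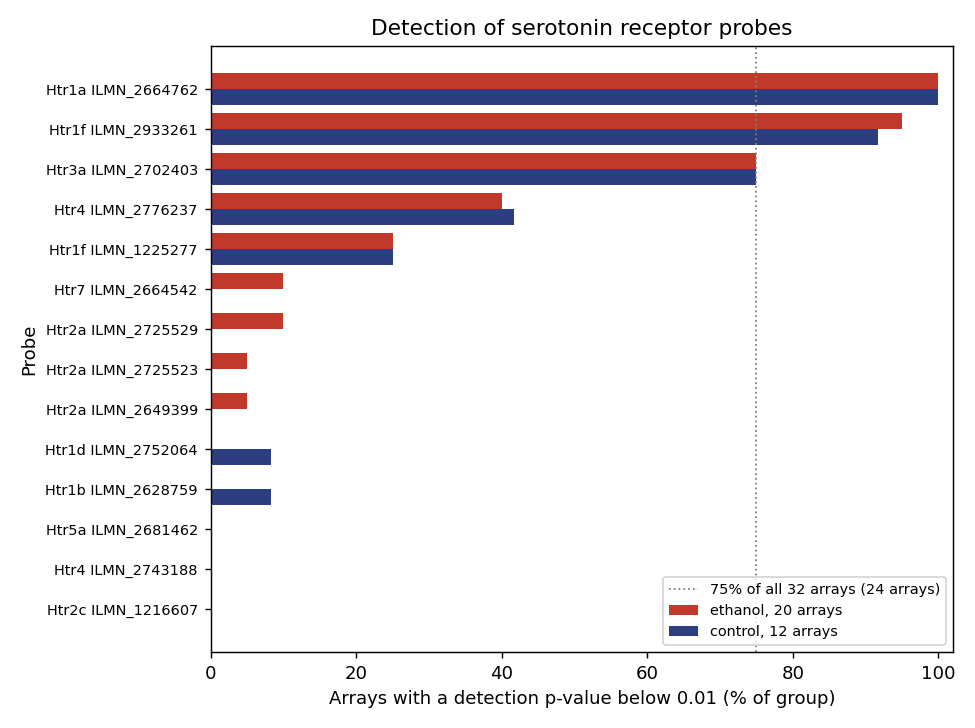
Percent of arrays in each group (horizontal axis) on which each of the 14 receptor probes (vertical axis) had a detection p-value below 0.01, for 20 ethanol and 12 control arrays. Htr1a, Htr1f ILMN_2933261 and Htr3a reach the dotted line at 24 of 32 arrays, and Htr2c, Htr5a and one Htr4 probe show no bar.

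Detection depended on its threshold. With a detection p-value below 0.05 a single probe was added, that of Htr4, giving 4 of 14 against 11429 of all probes (44.5%). With a value below 0.001 only Htr1a stayed, against 8846 of all probes (34.4%). The receptor genes of the array outside the 10, Htr2b, Htr3b, Htr5b and Htr6, had 6 probes, of which 0 passed. Htr5b was detected on 2 arrays, Htr6 on 1, and Htr2b and Htr3b on none.

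Htr1a, an inhibitory receptor, had a raw signal of 281 to 437 (median 359) on the ethanol arrays and of 217 to 499 (median 297) on the control arrays. The higher median of the ethanol group went with the higher median signal of its arrays as a whole, and after variance stabilization and quantile normalization it was gone. Normalized values, on a log2 scale, were 8.466 to 8.845 (median 8.668) in ethanol-treated mice and 8.419 to 9.018 (median 8.680) in controls. The ethanol values lay within the range of the controls, which spread more widely, and the 4 highest controls were those of chip 3.

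The mean Htr1a value was 8.662 ± 0.097 (SD, n = 20) with ethanol and 8.700 ± 0.177 (SD, n = 12) without. The difference of -0.0377 on the log2 scale (SE 0.0462, 95% interval -0.131 to 0.056) did not pass, with an adjusted p of 0.616 by limma. On this scale the interval runs from 0.913-fold to 1.04-fold. Of the 3 receptors tested, 0 were called at an FDR of 1%, where 8.18% of all tested probes were, and 0 at 10%, where 25.3% of all tested probes were. None had an unadjusted p below 0.05 either.

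Htr1f, which like Htr1a couples to inhibitory G proteins, had a raw signal of 199 to 317 (median 244) with ethanol and of 162 to 251 (median 206) in controls. Its normalized values were 8.141 to 8.609 (median 8.290) and 8.149 to 8.435 (median 8.257). The groups overlapped almost wholly, and the highest values came from ethanol-treated mice of chip 2. The difference was 0.0343 (SE 0.0385, 95% interval -0.0438 to 0.112), from means of 8.314 ± 0.118 (SD, n = 20) and 8.280 ± 0.088 (SD, n = 12), with an adjusted p of 0.577 by limma.

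Htr3a, the channel subunit, had a raw signal of 165 to 258 (median 215) with ethanol and of 159 to 230 (median 187) in controls. Normalized, it ran from 8.048 to 8.320 (median 8.199) and from 8.127 to 8.265 (median 8.206). The control range lay inside the ethanol range. Means were 8.207 ± 0.065 (SD, n = 20) and 8.204 ± 0.047 (SD, n = 12), a difference of 0.00321 (SE 0.0239, 95% interval -0.0453 to 0.0517) with an adjusted p of 0.945 by limma. On this scale Htr3a was the least variable of these probes, its within-group SD of 0.0587 lying at the 5.16th percentile of all tested probes. Htr1f lay at the 60.4th and Htr1a at the 80.9th. The mean value of Htr3a lay at the 0.668th percentile of tested probes. With a normexp background correction the SE of its difference was 0.122, above the 0.112 of Htr1a, so the ranking depends on the scale.

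These intervals hold for the transformed scale, which draws values near the background together. With a normexp background correction in place of the transform the intervals were wider. They ran from -0.297 to 0.159 for Htr1a, from -0.187 to 0.454 for Htr1f and from -0.241 to 0.254 for Htr3a. In whole tissue fewer cells of a type and less RNA per cell cannot be told apart.

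**Figure D2:**
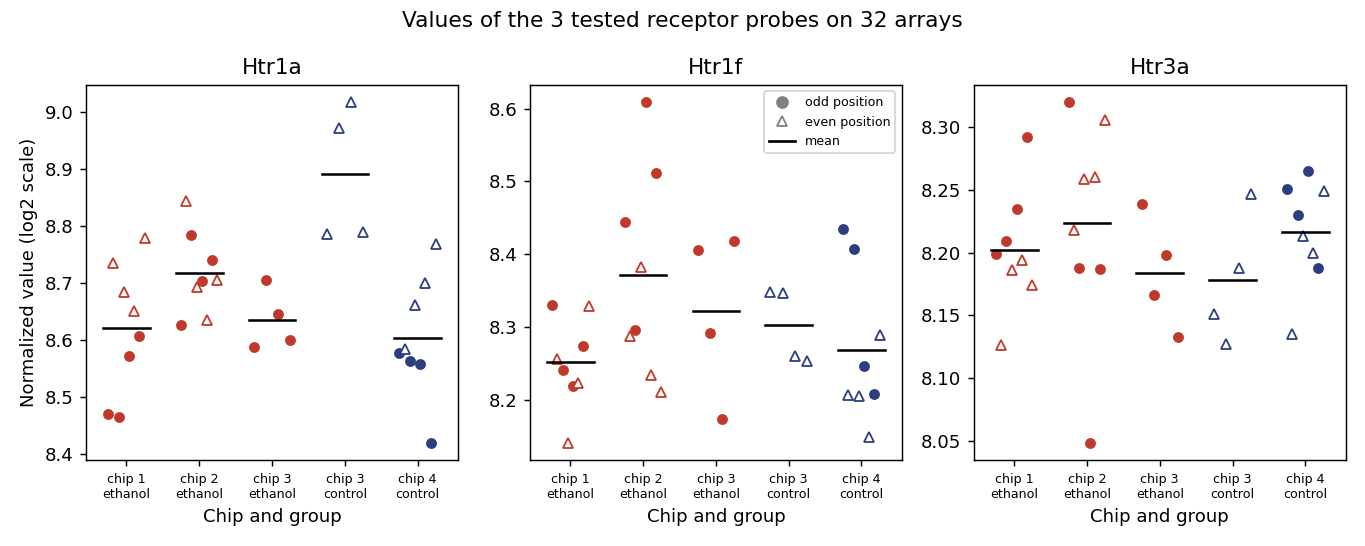
Normalized values on a log2 scale (vertical axis, a separate range in each panel) of Htr1a, Htr1f and Htr3a for every array, by chip and group (horizontal axis), with ethanol in red, control in blue, filled circles for odd and open triangles for even chip positions, and a black line at each mean. The 4 control arrays of chip 3 sit between 8.787 and 9.018 for Htr1a, above all 4 ethanol arrays of that chip, while Htr1f and Htr3a overlap.

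Within chip 3, the single chip that held both groups, Htr1a was lower in the ethanol-treated mice. The ethanol arrays read 8.588, 8.706, 8.646 and 8.601 and the control arrays 8.787, 8.972, 9.018 and 8.789, so the groups did not overlap. The means were 8.635 ± 0.053 (SD, n = 4) and 8.892 ± 0.121 (SD, n = 4). The difference of -0.256 (SE 0.0598, 95% interval -0.385 to -0.128), or 0.837-fold on the transformed scale only, had an adjusted p of 0.019 by limma. It passed an FDR of 10% and not of 1%. An exact two-sided permutation test gave p = 0.0286, the smallest that 4 against 4 arrays can give. Of the receptors 1 of 3 was called at 10%, where 16.6% of all tested probes were called, and 0 at 1%, where 2.58% were.

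The size of this Htr1a difference moved with the scale. It was -0.356 on the log2 signal (adjusted p = 0.00822 by limma, past 1%), -0.278 with median scaling (adjusted p = 0.0454) and -0.57 after normexp correction (adjusted p = 0.0361). For these settings the shares of all tested probes called on chip 3 are not given here. Leaving out each of the 8 arrays in turn gave -0.291 to -0.214 with adjusted p-values of 0.0116 to 0.0608. All of these were lower with ethanol. For arrays left out in turn this direction was fixed in advance, because the groups did not overlap, and treatment still coincided with position.

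Htr1f and Htr3a did not pass on chip 3. Htr1f read 8.174 to 8.419 with ethanol and 8.254 to 8.349 in controls, a difference of 0.0202 (SE 0.0582, 95% interval -0.105 to 0.146; adjusted p = 0.869 by limma). Htr3a read 8.133 to 8.239 and 8.127 to 8.247, a difference of 0.00556 (SE 0.0463, 95% interval -0.0941 to 0.105; adjusted p = 0.96 by limma). The ranges of both genes overlapped between the groups.

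The other chips did not show the chip 3 difference of Htr1a. The 16 ethanol arrays of chips 1 and 2 averaged 8.669 ± 0.105 (SD) and the 8 control arrays of chip 4 averaged 8.604 ± 0.106 (SD). Their difference of 0.0649 (SE 0.0446, 95% interval -0.0265 to 0.156) pointed the other way and did not pass (adjusted p = 0.311 by limma), in a comparison where 11.8% of all tested probes were called at 1% and 31.5% at 10%, and 0 of the 3 receptors at either, nor at an unadjusted p below 0.05. The chip 3 difference minus this one was -0.321 (SE 0.0836), with an adjusted p of 0.0136 by limma. The share of all tested probes that passed this test is not given here, so the result is not shown to be particular to Htr1a. The controls of chip 3 at 8.892 stood above the controls of chip 4 at 8.604. For Htr1f the same comparison of chips gave 0.0435 (adjusted p = 0.555 by limma) and for Htr3a -0.00367 (adjusted p = 0.946).

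Htr1a and Htr1f also differed by chip position where treatment did not vary. Over chips 1, 2 and 4 the odd positions averaged 8.591 ± 0.111 (SD, n = 12) for Htr1a and the even positions 8.704 ± 0.071 (SD, n = 12). The difference of -0.113 (SE 0.0339) had an adjusted p of 0.0289 by limma with chip in the fit. Htr1a was thus lower at odd positions, which on chip 3 held the ethanol arrays. Chip 1 showed it with means of 8.529 and 8.713 and chip 4 with 8.530 and 8.678, whereas on chip 2 the means were 8.714 and 8.720.

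Htr1f went the opposite way, with 8.352 ± 0.128 (SD, n = 12) at odd and 8.243 ± 0.071 (SD, n = 12) at even positions. This difference of 0.109 (SE 0.037) had an adjusted p of 0.0504 by limma. Htr3a differed by 0.00768 (adjusted p = 0.89). Thus 2 of 3 receptors were called at 10% between positions, where 20.0% of all tested probes were, and 0 at 1%, where 3.98% were. For Htr1a the call was lost with median scaling, at -0.0708 (adjusted p = 0.241 by limma).

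With chip as a block, the estimate rests on chip 3 alone and the spread is pooled over all arrays. Htr1a then differed by -0.256 (SE 0.0682) with an adjusted p of 0.0341 by limma, in a fit that called 6.66% of all tested probes at 10%. With chip as a random block it differed by -0.0855 (SE 0.0531) and the call was lost (adjusted p = 0.368 by limma). With chip and odd or even position both in the fit, Htr1a differed by -0.144 (SE 0.069, 95% interval -0.284 to -0.0032), with an unadjusted p of 0.0453 and an adjusted p of 0.522 by limma. In that fit 0.0393% of all tested probes passed 10%. Htr1f became -0.0887 (adjusted p = 0.748) and Htr3a -0.00211 (adjusted p = 0.995).

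**Figure D3:**
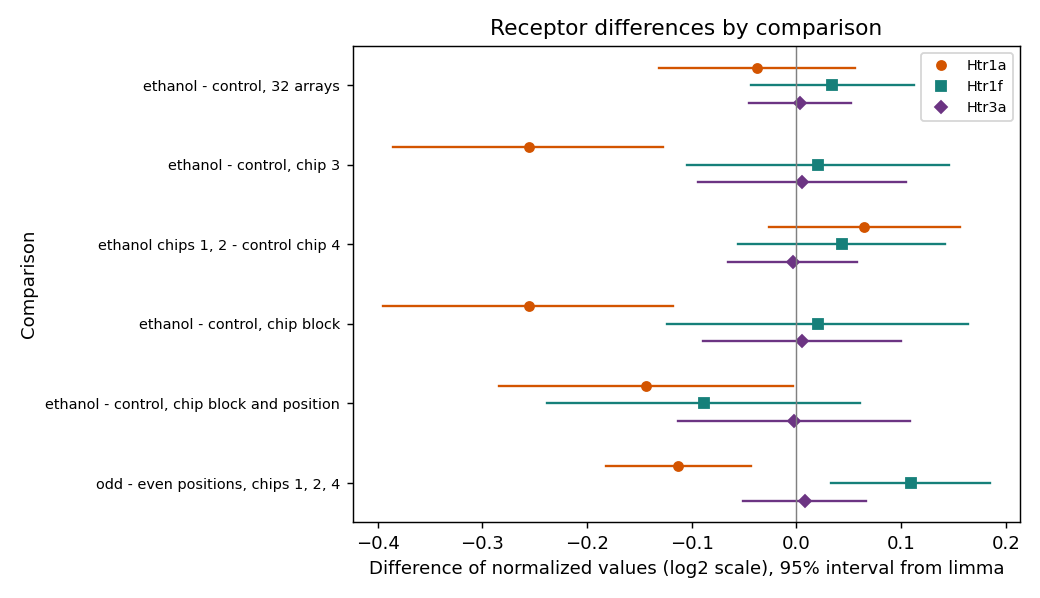
Differences of normalized values (horizontal axis, log2 scale) with 95% intervals from limma for Htr1a, Htr1f and Htr3a in 6 comparisons (vertical axis). The Htr1a interval lies below 0 on chip 3, with a chip block, with chip and position in the fit and between odd and even positions, and spans 0 over all 32 arrays and between chips 1 and 2 and chip 4, and the Htr3a interval spans 0 in every comparison drawn.

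Markers of cell types and of neighbouring regions differed on chip 3 beside Htr1a, in a comparison where 19.6% of all tested genes were called at an FDR of 10% by any probe. Of 4 tested excitatory neuron markers, 3 were lower with ethanol at 10%, among them Slc17a7, the vesicular glutamate transporter of cortical pyramidal neurons, at -0.468 (adjusted p = 0.00154 by limma). The summed signal of the list was 20800 to 22000 on the ethanol arrays and 23000 to 27300 on the controls. Of 4 tested olfactory bulb markers, 3 were higher, Pcdh21 by 1.27 (adjusted p = 0.00246), with sums of 2480 to 3030 against 1350 to 2030. Of 8 oligodendrocyte markers, 6 were lower and 1 higher, with overlapping sums of 21800 to 26000 and 24200 to 38800. Their part in the Htr1a result was not tested.

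Of the other lists on chip 3, astrocyte markers were higher for 3 of 7 tested genes, with sums of 19800 to 22200 against 16400 to 18100. In the list of Vip, Cck and Reln interneurons 3 of 5 were higher, with sums of 17000 to 18600 against 15400 to 15700. They were Calb2 by 1.22 (adjusted p = 0.00436 by limma), Reln by 0.375 (adjusted p = 0.0113) and Npy by 0.143 (adjusted p = 0.0943). Vip at 0.148 (adjusted p = 0.182) and Cck at -0.0834 (adjusted p = 0.434) were not called. Whether Calb2, Reln and Npy read interneurons or other tissue in the slice was not tested. The markers of Pvalb and Sst interneurons (0 of 4) and of upper layer neurons (0 of 3) did not pass. Deep layer markers were higher for 1 and lower for 2 of 8. The striatal list had 1 of 4 lower, the microglial list 1 of 7 lower, and the list of blood and endothelium 2 of 5 higher. For the choroid plexus 1 of 1 tested gene was higher, and 5 of the 7 genes on the array were detected nowhere. Over all 32 arrays, where 9.77% of all tested genes were called at 1%, the excitatory list had 3 of 4 genes lower, the deep layer list 1 higher and 2 lower of 8, and the astrocyte list 1 of 7 higher, the water channel Aqp4 at 0.445 (adjusted p = 0.00154 by limma). Tbr1 is in both of the neuronal lists, and the other lists had 0 at 1%. Among marker genes on the array, 4 of 5 excitatory neuron genes, 7 of 8 astrocyte genes and 8 of 8 oligodendrocyte genes were tested. So were 8 of 10 deep layer genes, 3 of 6 upper layer genes and 4 of 7 olfactory bulb genes.

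The markers of serotonergic neurons themselves, whose cell bodies lie in the raphe, did not reach the tested level in FCtx. Of the 5 raphe markers 0 were tested. Ddc, the decarboxylase that makes serotonin and dopamine, was detected on 23 arrays, 1 short of the level required, and the other 4 on no array, among them Tph2, the rate-limiting enzyme of serotonin synthesis in the brain, and Slc6a4, the serotonin transporter. Of 15 genes of synthesis, transport and breakdown, 7 were tested, and 0 were called at 1%, where 9.77% of all tested genes were, and 1 at 10%, lower, where 29% were. Spr, which makes the cofactor of tryptophan hydroxylase, ran from 8.450 to 8.916 (median 8.701) with ethanol and from 8.608 to 8.986 (median 8.796) in controls, a difference of -0.096 (SE 0.0392; adjusted p = 0.0828 by limma). Maob, a monoamine oxidase, differed by 0.0393 (SE 0.0233; adjusted p = 0.246), with overlapping groups.

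Signalling partners of the receptors were far better detected. Of those on the array, 21 of 25 G proteins and effectors were tested. So were 15 of 17 receptor partners, regulators and editing enzymes, where 7926 of all 18138 genes were. The 4 lists of related genes also hold the other receptor genes and those of synthesis, transport and breakdown. Of their 66 genes, 61 were on the array and 43 were tested. At an FDR of 1% 4 of these 43 genes were called (9.3%), 2 higher and 2 lower, where 9.77% of all tested genes were, and at 10% 16 (37.2%), 9 higher and 7 lower, where 29% were. The median difference of the 43 was 0.00543, and that of all tested probes -0.00265. All 4 genes called at 1% came from the list of G proteins and effectors, of which 21 were tested.

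Gnas, which encodes the stimulatory G protein subunit used by Htr4 and Htr7, ran from 11.155 to 11.677 (median 11.517) with ethanol and from 10.634 to 11.677 (median 11.184) in controls. Its groups overlapped, with 19 of 20 ethanol arrays above the control median. It was higher by 0.308 (SE 0.0795; adjusted p = 0.00662 by limma) at its brighter probe and by 0.393 (adjusted p = 0.00146) at the other. On chip 3 its brighter probe differed by -0.144 (adjusted p = 0.234), the other direction. The Gnas locus gives several overlapping transcripts that the probes may not separate.

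Gnao1, the most abundant inhibitory subunit of brain, ran from 11.249 to 11.663 (median 11.429) with ethanol and from 10.908 to 11.537 (median 11.160) in controls, and all 20 ethanol arrays lay above the control median. It was higher by 0.213 (SE 0.0517; adjusted p = 0.00441 by limma) at its brighter probe, while its other probe differed by 0.102 (adjusted p = 0.12). The call at 1% was lost without control mouse C66 and with all probes of the array tested. On chip 3 the brighter probe differed by 0.0406 (adjusted p = 0.665). Neither increase passed on chip 3, and on the other chips treatment and chip cannot be told apart.

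The called decreases pointed the same way on chip 3. Gnai2, an inhibitory subunit through which Htr1 receptors signal, ran from 9.246 to 9.913 (median 9.549) with ethanol and from 9.661 to 9.946 (median 9.765) in controls. It fell by 0.198 on the log2 scale (SE 0.0475; adjusted p = 0.00395 by limma), with 2 of 20 ethanol arrays above the control median, and differed by -0.243 on chip 3 (adjusted p = 0.0348). Arrb2, an arrestin that binds activated receptors, ran from 8.753 to 9.106 (median 8.960) and from 8.943 to 9.253 (median 9.099). It fell by 0.156 (SE 0.0351; adjusted p = 0.00239 by limma), with 1 of 20 ethanol arrays above the control median, and differed by -0.163 on chip 3 (adjusted p = 0.0758). When chip and position were both in the fit, Gnai2 differed by -0.253 (adjusted p = 0.395 by limma) and Arrb2 by -0.0858 (adjusted p = 0.758). With median scaling, with chip as a block, and with chip and position in the fit, 0 of the pathway genes passed 1%. In these fits 11, 16 and 5 of the 43 had an unadjusted p below 0.05 (25.6%, 37.2% and 11.6%), where 23.7%, 23.3% and 11.3% of all tested genes did.

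Of 15 tested receptor partners, regulators and editing enzymes, 0 were called at 1% and 4 at 10%, 2 higher and 2 lower, where 9.77% and 29% of all tested genes were. Those with the lowest p were a pair of related transcriptional repressors. Cc2d1a was higher by 0.141 (SE 0.0458; adjusted p = 0.0282 by limma), with ethanol values of 9.100 to 9.573 and control values of 8.950 to 9.414. Cc2d1b fell by 0.0713 (SE 0.0248; adjusted p = 0.0403), with 8.239 to 8.494 and 8.384 to 8.603. The groups overlapped for both. On chip 3 Cc2d1a differed by 0.284 (adjusted p = 0.0141 by limma) and Cc2d1b by -0.106 (adjusted p = 0.217).

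**Figure D4:**
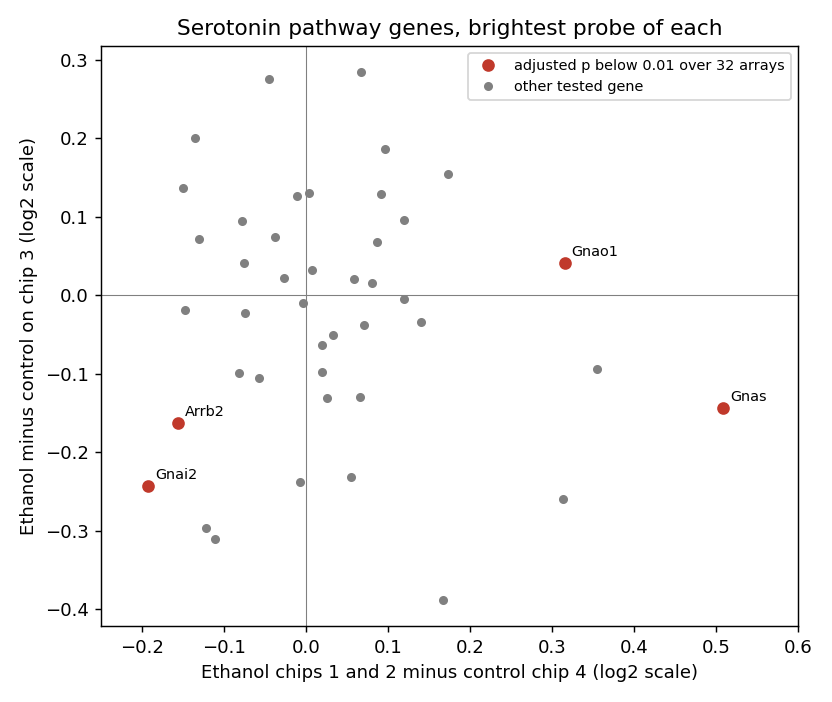
Differences on the log2 scale for the 43 tested pathway genes, at the brightest probe of each, between ethanol chips 1 and 2 and control chip 4 (horizontal axis) and between ethanol and control on chip 3 (vertical axis), with genes called at an adjusted p below 0.01 over all 32 arrays in red. Gnai2 and Arrb2 lie below 0 on both axes, while Gnas lies at -0.144 and Gnao1 at 0.0406 on the vertical axis.

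Across the 32 arrays, after centring within chip and group, the 3 receptors did not vary together. Pearson's r was -0.125 between Htr1a and Htr1f, -0.225 between Htr1a and Htr3a and -0.287 between Htr1f and Htr3a, and 0.245 between both Htr1f probes, one of which was mostly undetected. The genes most like Htr1a were Add1 (r = 0.759), a membrane skeleton protein, Cd99l2 (r = 0.674) and 6620401K05Rik (r = 0.665). Those most like Htr1f were Mef2c (r = 0.79), a neuronal transcription factor, Lass4 (r = 0.768), a ceramide synthase, and R3hdm1 (r = 0.763). The Mef2c value came from 1 of its 3 tested probes, which was not its brightest.

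For Htr3a they were Bai2 (r = 0.693), an adhesion receptor, Pacsin1 (r = 0.608), a synaptic endocytosis protein, and Fbln1 (r = 0.597), a matrix protein. Without the 2 arrays farthest from the median of the receptor, r was 0.716 for Add1, 0.702 for Mef2c and 0.654 for Bai2, and Spearman's rho over all arrays was 0.755, 0.694 and 0.667. These are the highest of many correlations over the same arrays, which share hybridization and tissue, and are given as a description.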

How the data were processed

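The authors deposited bead-level summaries that had not been normalized. The deposited table gives for each probe and array the mean bead signal as an intensity, a detection p-value, the bead standard error and the number of beads, which are other values used here for the transform. The build of the probe coordinates is not given in the sources used here, so chromosomes and transcript positions alone are printed. The study's notes name lumi and limma for variance stabilization, quantile normalization and testing.

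Since lumi was not used here, its variance-stabilizing transform was rewritten (R 4.3.3), followed by quantile normalization and limma 3.58.1. The noise term of the transform was replaced after the values of a first version had been seen and set beside an earlier analysis of these arrays, and the first version is kept as an alternative. A probe was tested if 24 or more of the 32 arrays had a detection p-value under 0.01, with Benjamini-Hochberg adjustment over 10187 probes and FDRs of 1% and 10%. Intervals cover 95%. Groups came from the sample titles, and chip and position from the descriptions. The comparisons used all 32 arrays, chip 3, chips 1 and 2 against 4, and odd against even positions with chip in the fit. Alternatives were the transform, background correction (neqc, offset 16), scaling, probe filters, chip and position terms, array weights, and arrays left out.

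The receptors, the 4 pathway lists and the 13 marker lists were chosen with earlier results of these data known, and so support nothing on their own. Named pathway genes were those called at 1% and otherwise the 2 with the lowest p of each list, and likeness named the 3 genes of highest Pearson correlation. A gene counted as called if any probe was, and its value is that of its brightest tested probe. Summed marker signals are quantile-normalized intensities of 1 probe per gene. The scripts were tested on simulated data. Figures were drawn with matplotlib 3.10.9.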

Additional observations from a re-analysis of the deposited data

Results flagged for a closer look

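The Htr1a difference between ethanol and control arrays was not the same on chip 3 as on the other chips. On chip 3 the ethanol arrays averaged 8.635 and the controls 8.892, while the ethanol arrays of chips 1 and 2 averaged 8.669 and the controls of chip 4 averaged 8.604. The chip 3 difference minus the other one was -0.321 on the log2 scale (SE 0.0836; adjusted p = 0.0136 by limma), which passes an FDR of 10% and not of 1%. What share of all tested probes passed is not given here, so the result is not shown to be particular to Htr1a. The test was added after the data had been seen, and this result is listed here at 10% because no result met 1%, a choice also made after its value was known. On chip 3 treatment coincides with odd and even positions, and on the other chips with the chip. With chip and position both in the fit, the Htr1a difference between ethanol and control arrays was -0.144 (SE 0.069; adjusted p = 0.522 by limma).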

How the results depend on the processing

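Over all 32 arrays 0 receptors were called at 1% under any of the 13 alternatives. The Htr1a difference ran from -0.256 to 0.00211, turning sign with position as a covariate (0.00211), and the lowest adjusted p was 0.0341 by limma, with a chip block. Htr1f ran from -0.0887 to 0.133 and Htr3a from -0.00211 to 0.0135, and both turned sign with chip and position in the fit, at -0.0887 and -0.00211. The cause was not tested. The first version of the transform gave -0.0368, 0.0322 and 0.00306. With all 25697 probes tested, 0 of the 14 receptor probes passed, and the lowest p was 0.0562 for Htr2a (adjusted p = 0.289 by limma). The pathway count of 4 fell to 0 with median scaling, a fixed chip block, a random chip block, and chip with position, and was at most 6, with position alone. Detected receptor probes numbered 1 at a detection p-value below 0.001. On chip 3, 1 receptor passed 1% with log2 signals, and 0 did when each array was left out in turn. The share of all tested probes that passed with log2 signals there is not given here. Over all probes, 833 were called at 1% over 32 arrays, 78 with median scaling, 15 with a chip block, 68 with a random block, 565 without control mouse C66 and 1 with chip and position. Without C66, chosen after seeing the data, Htr1a on chips 1, 2 and 4 differed by 0.0892 (adjusted p = 0.166). No paired analysis was possible because ethanol and control mice carry different numbers. Htr3a and Htr1f lie near background, where the transform understates differences.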
